A study of Mus musculus with 24 samples.

Results

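Genes for the granule proteins of neutrophils and for the proteins that accumulate as neutrophils mature were examined in preleukemic mouse cells that had lost the terminal uridylyl transferases TUT4 and TUT7, which extend RNAs at the 3′ end with uridine. The set was fixed by name as Mpo, Elane, Prtn3, Ctsg, Ltf, Camp, Ngp, S100a8, S100a9 and Lyz2, which are 10 of the 20868 genes with a 3′UTR interval. Fetal liver cells positive for c-Kit had been transformed with retroviruses for Meis1 and Hoxa9, a treatment the labels spell Hox9/Meis1 and which both genotypes share. The cDKO cells carried Tut4 fl/fl, Tut7 fl/fl and Vav-iCre, which is active in blood cells from early stages on, and the control cells were those of littermates without the Cre. Newly made RNA was marked over 12 hours with 4-thiouridine (4SU) at 2.9 µM, the medium was exchanged for one without it, and cells were collected after a chase of 0, 60, 180 or 540 min, with 3 libraries for each genotype and time and 24 libraries in all. The methods call the replicates biological triplicates from independent animals or embryos, and the labels give each only a number.

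Neutrophil granules are filled in sequence during differentiation. Primary (azurophil) granules are made at the promyelocyte stage and carry myeloperoxidase and the serine proteases, secondary (specific) granules follow at the myelocyte stage with lactoferrin and cathelicidin, and the calcium-binding proteins S100A8 and S100A9 fill the cytosol of maturing cells. The primary granule genes are switched on by RUNX1, PU.1 and C/EBPα, and C/EBPε is needed for the secondary granule genes. Cells transformed by Hoxa9 and Meis1 are held at an immature myeloid stage.

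The primary granule genes carried most of the reads in the set, so the sequence just upstream of each is shown, with bases -169 to -70 from the RefSeq start site on the gene's strand, 5′ to 3′, in GRCm38.p6. Capitals mark a match to TGTGGT (RUNX) or GAGGAA (PU.1) on either strand. The windows are chr11:87793615-87793714 (plus strand) for Mpo, chr10:79886143-79886242 (plus) for Elane, chr10:79879498-79879597 (plus) for Prtn3 and chr14:56102644-56102743 (minus) for Ctsg.
Mpo: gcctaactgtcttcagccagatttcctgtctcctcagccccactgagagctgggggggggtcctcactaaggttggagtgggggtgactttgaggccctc
Elane: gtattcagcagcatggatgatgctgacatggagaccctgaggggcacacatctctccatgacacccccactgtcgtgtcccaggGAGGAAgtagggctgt
Prtn3: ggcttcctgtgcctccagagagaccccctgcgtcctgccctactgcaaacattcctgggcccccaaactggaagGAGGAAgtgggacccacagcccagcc
Ctsg: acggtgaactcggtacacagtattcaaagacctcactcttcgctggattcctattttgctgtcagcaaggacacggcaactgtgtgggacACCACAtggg
The match in Elane begins at base -85, that in Prtn3 at -95 and that in Ctsg, on the opposite strand, at -79, and none falls in the stretch shown for Mpo. Further upstream, PU.1 matches began at -247 and -224 in Mpo and at -216 in Ctsg. Among 32851 promoter windows of 250 bases before the start site, TGTGGT occurred in 14.0%, GAGGAA in 23.3% and the C/EBP letters TTGCNNAA, which none of these 4 promoters held, in 9.56%, so the matches are descriptions of common letters.

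Reads were counted over 3′UTR intervals in mm10. The intervals were chr11:87804325-87804412 for Mpo (with a second short interval of the same gene), chr10:79888118-79888216 for Elane, chr10:79882977-79883174 for Prtn3, chr14:56099885-56099958 for Ctsg, chr10:117277541-117278120 for Lyz2, chr9:111042183-111042766 for Ltf, chr9:109847377-109847434 for Camp, chr9:110422410-110423012 for Ngp, chr3:90669968-90670034 for S100a8 and chr3:90692630-90692745 for S100a9. They lay on the plus strand except those of Ctsg, Lyz2, Camp and S100a9, and none overlapped an interval of another gene. Their lengths ran from 58 bases in Camp to 603 in Ngp, against a median of 1031 bases over 10689 expressed genes. Levels are given in counts-per-million (CPM) of the reads in 3′UTR intervals, from libraries of 4380238 to 7041311 such reads, and are compared between samples and never between genes. At 0 min Tut4 was at 68.1, 75.2 and 86.3 CPM in control and 17.8, 30.2 and 18.6 in cDKO, a log2 change of -1.75 ± 0.22 (SE, adjusted p = 0.00118), and Tut7 was at 40.3, 34.6 and 45.1 against 16.7, 19.2 and 20.2, a log2 change of -1.08 ± 0.17 (adjusted p = 0.00388). These reads come from the 3′ end and do not measure the deleted exons. In whole cultures, fewer granulocytic cells and less RNA per cell cannot be told apart.

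The 7 genes that could be tested were lower in cDKO than in control cells at every chase time. They were the 4 primary granule genes, S100a8, S100a9 and Lyz2. With edgeR's quasi-likelihood test and Benjamini-Hochberg adjustment over all genes, 6 of these 7 passed an adjusted p of 0.05 as lower at 0 min, where 6.64% of 10186 genes were called lower. At 60 min all 7 passed, against 10.2% of genes. At 180 and 540 min 6 passed, against 9.78% and 10.4%, and none was called higher at any time, against 6.72%, 9.97%, 9.1% and 8.89% of genes at 0, 60, 180 and 540 min. S100a8, S100a9 and Lyz2 entered the test through their control reads alone, so a difference in them was built into their being tested. The same holds for Mpo at 0, 180 and 540 min. Its cDKO replicate 3 was at only 1.75, 1.32 and 0.712 CPM at those times, too low for the filter. Ltf, Camp and Ngp had too few reads in both genotypes to be tested.

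**Figure D1:**
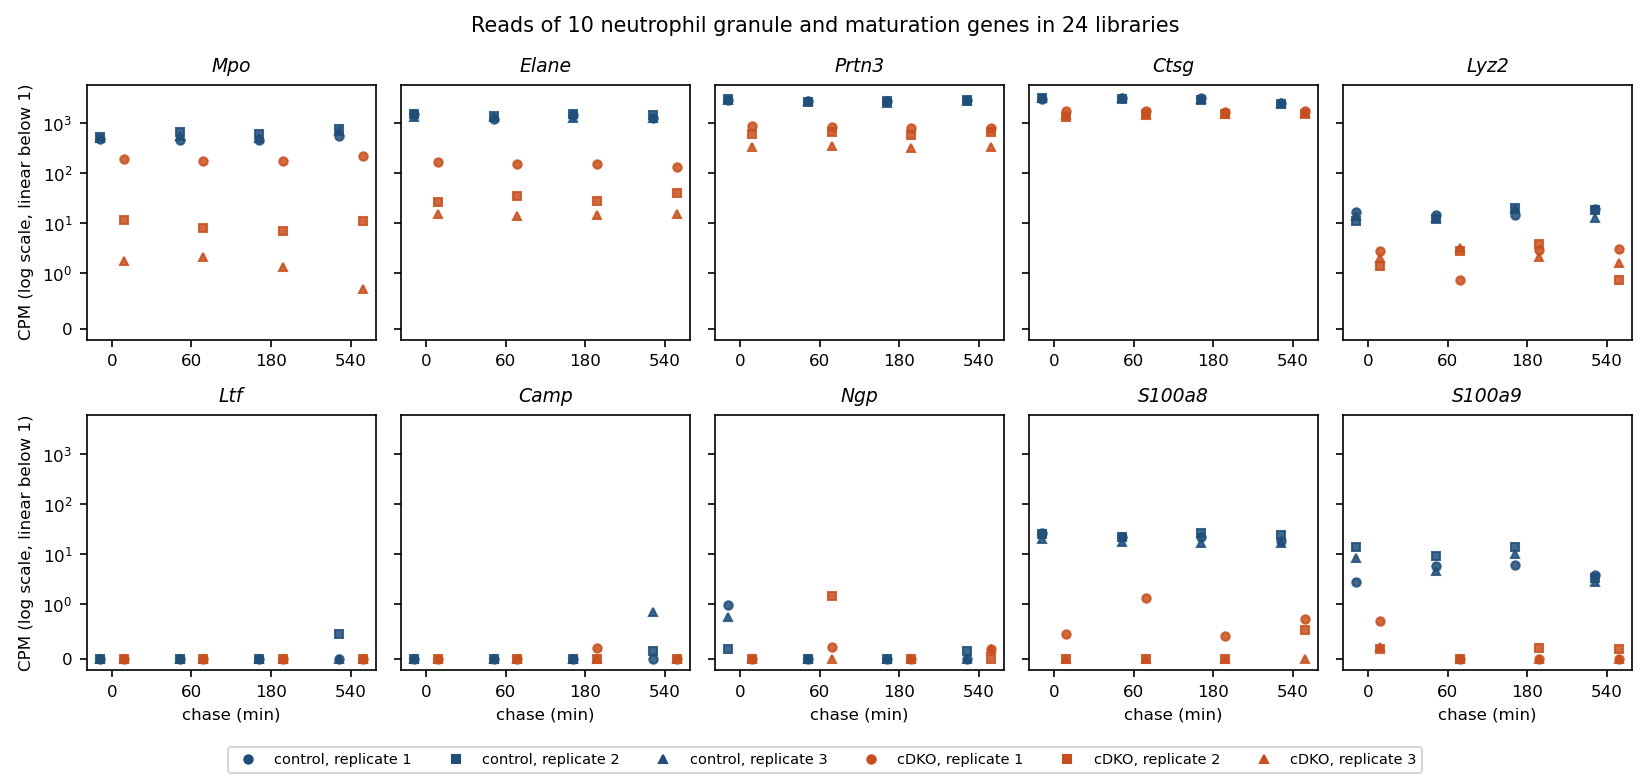
Level of each gene (CPM, log scale above 1 and linear below) against chase time in min, with 1 point for each of the 24 libraries, control in blue and cDKO in orange, and the replicate number as the symbol. The 3 cDKO replicates keep the same order at all 4 times for Mpo, from 192 down to 1.75 CPM at 0 min, and lie close together for Ctsg, from 1319.5 to 1799 CPM. The 3 control replicates also keep 1 order for Mpo, over a narrower range, from 541 down to 487 CPM at 0 min.

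Mpo encodes myeloperoxidase, the haem enzyme of primary granules that makes hypochlorous acid. Its levels at 0 min were 487, 541 and 502 CPM in control and 192, 11.5 and 1.75 CPM in cDKO replicates 1 to 3. Every cDKO library lay below every control library, but the cDKO libraries themselves spanned a wide range. The log2 change was -2.92 ± 1.03 at 0 min (adjusted p = 0.101), -3.28 ± 0.94 at 60 min (0.0341), -3.10 ± 0.98 at 180 min (0.0501) and -3.15 ± 1.08 at 540 min (0.0739). The call at 60 min was lost with DESeq2 (adjusted p = 0.115), with all 24 libraries in 1 fit (0.0941) and without control replicate 1 (0.0946), 2 (0.119) or 3 (0.103). The 0, 180 and 540 min results passed the threshold without cDKO replicate 1, with log2 changes of -6.16 (adjusted p = 0.000798), -7.03 (1.14e-05) and -6.82 (0.000452). At these 3 times Mpo entered the test through its control reads alone, so these passes carry no support.

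Elane encodes neutrophil elastase, a serine protease stored beside myeloperoxidase. Its levels at 0 min were 1570.2, 1549 and 1342 CPM in control and 169, 27.2 and 15.3 CPM in cDKO. The highest cDKO library was far below the lowest control library, and cDKO replicate 1 was again the highest of its group. The log2 change was -4.41 ± 0.74 at 0 min (adjusted p = 0.00507) and stayed between -4.30 and -4.47 at the later times, with adjusted p from 0.00106 to 0.00126.

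Prtn3 encodes proteinase 3, the closely related protease that lies next to Elane in the genome. It was at 2988, 3015 and 2899 CPM in control and 902, 604 and 332 CPM in cDKO at 0 min. The control libraries differed by a few percent and the cDKO replicates stood in the same order as for Mpo and Elane. The log2 change was -2.26 ± 0.29 at 0 min (adjusted p = 0.00133) and between -2.17 and -2.27 afterwards, with adjusted p from 0.000173 to 0.000400.

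Ctsg encodes cathepsin G, the remaining protease of this group, and changed least among the 4. Its levels at 0 min were 3118, 3238 and 3257 CPM in control and 1799, 1319.5 and 1499 CPM in cDKO. The cDKO replicates did not keep one order over time for this gene. The log2 change was -1.05 ± 0.11 at 0 min (adjusted p = 0.000415), -1.02 ± 0.08 at 60 min (2.23e-05), -0.97 ± 0.07 at 180 min (1.59e-05) and -0.64 ± 0.06 at 540 min (0.000214).

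The spread among cDKO replicates persisted through the chase. Averaged over the 4 times, Mpo was at 191 CPM in cDKO replicate 1 and 1.47 CPM in replicate 3, 130-fold apart, and the ranges of the 3 replicates did not overlap. Elane was at 154, 32.9 and 14.6 CPM in replicates 1, 2 and 3, 10.5-fold from highest to lowest, and Prtn3 was at 836, 634 and 339 CPM, 2.47-fold. For Ctsg the replicate means were 1765, 1479.5 and 1527 CPM, 1.19-fold apart, and their ranges overlapped. In control the corresponding ratios were 1.29 for Mpo, 1.15 for Elane, 1.04 for Prtn3 and 1.04 for Ctsg, with overlapping ranges in each. The control replicates nonetheless kept 1 order for Mpo at all 4 times. By the log2 change at 0 min the decrease was steepest for Elane, then Mpo, Prtn3 and Ctsg. The estimate for Mpo had the widest error of the 4 and depended on cDKO replicate 1. Differences between the genes were not tested.

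**Figure D2:**
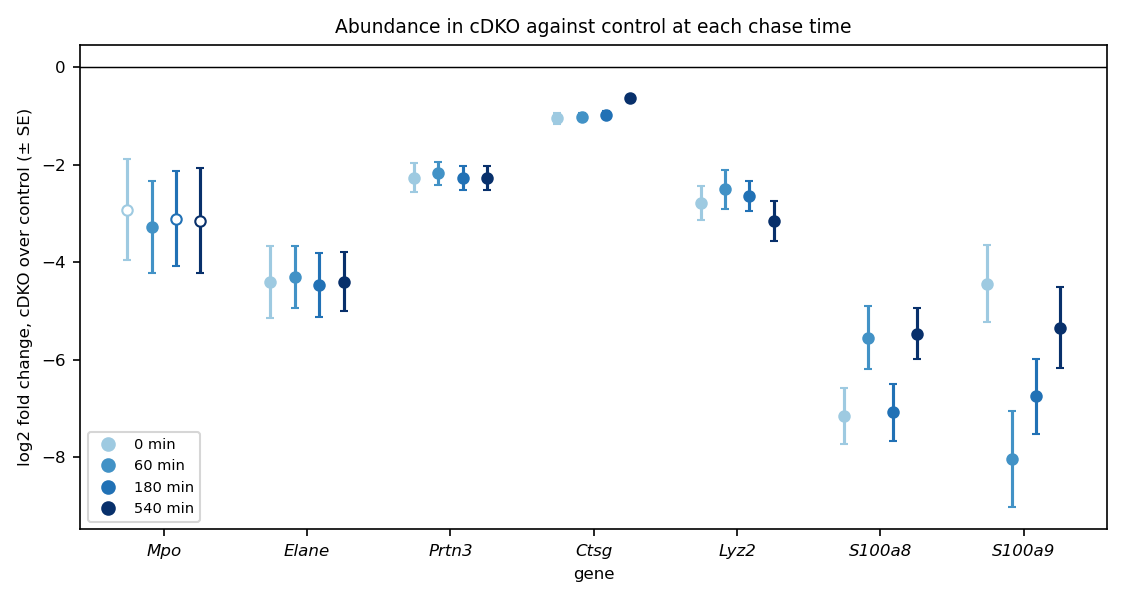
Log2 fold change of cDKO over control (vertical axis, edgeR, error bars ± SE) for the 7 tested genes at 0, 60, 180 and 540 min of chase, from light to dark blue, with filled points passing an adjusted p of 0.05 and open points not. Ctsg lies nearest to 0, between -1.05 and -0.64, and the error bars are widest for Mpo, where only the 60 min point is filled.

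Lyz2 encodes the lysozyme of myeloid cells, found in several granule types and in macrophages. It was low in control, at 16.6, 11.3 and 14.3 CPM at 0 min, and at 2.74, 1.41 and 1.97 CPM in cDKO. Over all 12 libraries of each genotype there were 1040 reads against 139, and control was 6.81-fold higher (exact 95% interval 5.70 to 8.19, counting error only). The log2 change was -2.78 ± 0.35 at 0 min (adjusted p = 0.00115) and between -2.50 and -3.16 later, with adjusted p from 0.000251 to 0.00182. Of the Lyz2 reads 37.6% mapped to more than 1 place, against at most 0.218% for any other gene of the set, so that reads shared with a near-identical gene such as Lyz1 leave its level uncertain.

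The 3 secondary granule genes of the set were at the limit of detection in both genotypes. Other genes of secondary and tertiary granules, described below, were detected and summed to 291 to 444 CPM in control and 217 to 337 CPM in cDKO. Ltf, the lactoferrin gene, had 3 reads in 1 control library at 540 min and none in cDKO. Camp, which encodes cathelicidin, had 1 and 6 reads in 2 control libraries at 540 min and 1 read in a cDKO library at 180 min. Ngp, for neutrophilic granule protein, had 12 reads in 4 control libraries, of which 5, 1 and 5 were at 0 min, and 10 reads in 4 cDKO libraries, of which 7 were in a single library at 60 min. A count of 0 over the 12 pooled libraries allows up to 0.0444 CPM in control and 0.0488 CPM in cDKO, and a count of 0 in the smallest library 0.615 and 0.685 CPM. A difference between genotypes in these 3 genes was not detectable at this depth.

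S100a8 and S100a9, whose products pair as calprotectin, were nearly absent from the cDKO libraries. S100a8 had 131, 132 and 128 reads in control at 0 min and 2, 0 and 0 in cDKO. Over the chase, control libraries held 83 to 160 reads and 5 of 12 cDKO libraries held any, with 6 at most. Pooled over all times, control was 74.8-fold higher (1398 reads against 17, exact 95% interval 46.6 to 129), and the fitted log2 change was -7.15 at 0 min (adjusted p = 0.000137), -5.55 at 60 min (0.000298), -7.08 at 180 min (3.38e-05) and -5.47 at 540 min (0.000172).

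S100a9 had 14, 72 and 53 reads in control at 0 min and 3, 1 and 1 in cDKO. At 60 min no cDKO library held a read, and the pooled level was at least 32.0-fold lower there, taking 3 reads over the group as the floor. Over all times control was 58.7-fold higher (452 reads against 7, exact 95% interval 28.3 to 147), and the adjusted p lay between 0.000214 and 0.00626. Both genes lie on chromosome 3, whose genes were shifted downward in cDKO as a whole. The median log2 change of 483 chromosome 3 genes at 0 min was -0.51 and 38.3% of them were called lower, against a median of 0.02 on the other chromosomes, and 50.2%, 49.0% and 53.7% were called lower at 60, 180 and 540 min. The changes of S100a8 and S100a9 were several times that median, and the part of the shift in them was not tested.

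The other genes of the pathway came from lists chosen with earlier results of these data known, and are described at 0 min beside all genes, whose median log2 change was 0.01 with 6.72% called higher and 6.64% lower. Some of these genes had almost no reads in one genotype and entered the test through the other, among them Mmp8, Cybb, Wfdc21, F13a1 and Csf1r through control and Cpa3, Hdc, Hbb-bt, Itga2b and Prg3 through cDKO, so a difference in them was built into their being tested and the counts are a description. Of 8 tested genes of primary granules and promyelocytes, 2 were higher and 1 lower, with a median of -0.06. Ctsc, whose product cathepsin C activates the granule serine proteases, rose by 2.97 on the log2 scale (adjusted p = 0.00121), from 32.7, 38.7 and 42.6 CPM to 280.3, 138 and 472 CPM, and the tetraspanin gene Cd63 rose by 0.43. Ms4a3, a marker of granulocyte and monocyte progenitors, fell by 0.64. The summed level of this list ran from 7459 to 7940 CPM in control and from 6344 to 8482 CPM in cDKO, so the ranges overlapped.

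Of 7 tested genes of secondary and tertiary granules, 4 were lower and 1 higher, with a median of -0.98. Mmp8, the neutrophil collagenase, was at 22.3, 41.2 and 30.3 CPM in control and 0.457, 0.353 and 0.219 CPM in cDKO, and Cybb, the large subunit of the phagocyte oxidase, was at 34.8, 45.9 and 24.7 CPM against 5.02, 0.353 and 0.438 CPM. Hp, haptoglobin, fell by 1.61 on the log2 scale (adjusted p = 0.00329). Adam8 rose by 1.84 (0.0346). Of 8 tested late maturation and receptor genes, Wfdc21 was 89.2-fold higher in control (313 reads against 3, exact 95% interval 30.3 to 435), Mcemp1 fell by 3.15 on the log2 scale, none was called higher and the median was -0.38, while Fpr1, Fpr2, Retnlg and Il1b had no read in any cDKO library. Fpr1, Fpr2 and Retnlg also had none in control at 0 min.

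Of 9 tested myeloid transcription factors, 5 were lower and 1 higher, with a median of -0.67. Irf8, which directs cells to the monocyte fate, fell by 1.47 on the log2 scale (adjusted p = 0.000434), Cebpb by 1.19 (0.00153) and Cebpd by 1.07 (0.00879). Cebpe, the factor of the secondary granule programme, rose by 2.03 (0.00468). Runx1 and Spi1, the gene of PU.1, named here after their values were seen because the printed promoters were searched for their motifs, fell by 0.92 (0.000522) and 0.67 (0.0371), and Cebpa had a log2 change of 0.10 (0.714).

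Markers of other cell types moved with the same contrast. Of 7 tested monocyte and macrophage genes, 4 were lower and 1 higher, and their summed level was 1158 to 1734 CPM over the control libraries and 320.1 to 994.5 over the cDKO libraries. F13a1, coagulation factor XIII A, was 1499-fold higher in control (3504 reads against 2, exact 95% interval 415 to 12380), and Csf1r, the receptor of macrophage colony-stimulating factor, fell by 3.98 on the log2 scale, while the macrophage gene Adgre1 rose by 3.35. The mast cell and basophil genes summed to 16.7 to 35.2 CPM in control and 147 to 322 CPM in cDKO, with 3 of 5 tested genes higher, Cpa3, Hdc and Gata2, and Fcer1a, Cma1 and Tpsb2 at 0 in both genotypes.

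Erythroid genes summed to 0.372 to 3.07 CPM in control and 1307 to 2091 CPM in cDKO, where the only tested gene, the beta-globin gene Hbb-bt, was higher by 11.06 on the log2 scale, and Epor and Alas2 had no read in either genotype. Megakaryocyte genes summed to 2.40 to 9.68 CPM in control and 7.32 to 23.7 CPM in cDKO, with Itga2b the 1 gene called higher of 2 tested. Eosinophil genes reached at most 0.397 CPM in control and 4.41 CPM in cDKO, with Prg3 called higher and Epx, Ear1 and Ear2 at 0. Lymphoid genes reached at most 0.529 CPM and none was tested. Of 6 tested progenitor and transforming genes Hoxa9 rose by 1.06 and Ly6a, the stem cell antigen Sca-1, fell by 2.47. The list summed to 2287 to 3103 CPM in control and 3694 to 6818 CPM in cDKO. Whether reads over the Hoxa9 3′UTR include the retroviral transcript is not stated. The part of these cell types in the changes of the granule genes was not tested.

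**Figure D3:**
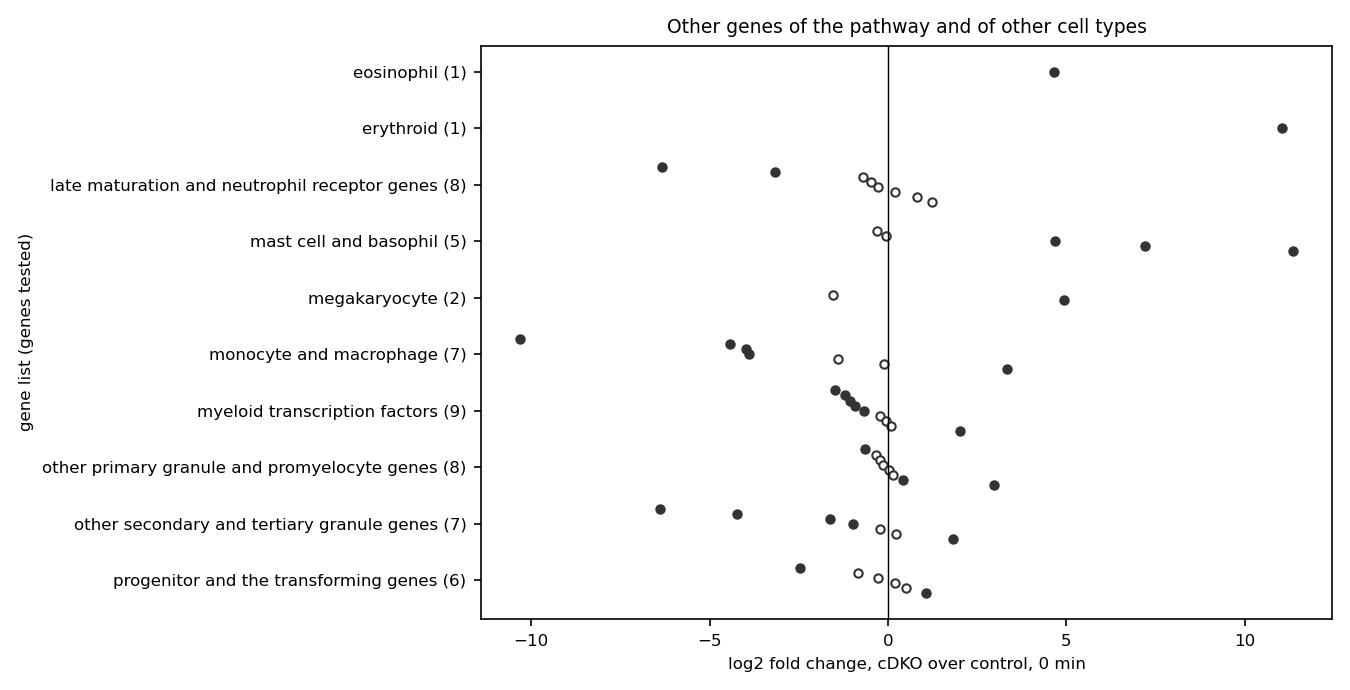
Log2 fold change of cDKO over control at 0 min (horizontal axis) for the tested genes of each list (vertical axis, with the number tested in brackets), 1 point a gene, filled where the adjusted p is under 0.05. The genes of primary granules and promyelocytes center on 0 with a median of -0.06, and the monocyte and macrophage genes reach down to a fitted -10.32 for F13a1.

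Because the genotypes were compared within each chase time and the labels give the time as a batch, changes through the chase compare batches. In control, 2 of the 7 tested genes changed between 0 and 540 min, where 16.2% of 10226 genes did. Mpo was at 487, 541 and 502 CPM at 0 min and 569, 764 and 707 CPM at 540 min, and rose by 0.38 ± 0.08 on the log2 scale (adjusted p = 0.00449). Ctsg went from 3118, 3238 and 3257 CPM to 2604, 2391 and 2603 CPM and fell by 0.38 ± 0.04 (2.24e-05). Neither pair of groups overlapped.

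Elane (log2 change -0.20, adjusted p = 0.0526) and S100a9 (-1.37, 0.0536) lay just outside the threshold, and Prtn3 (-0.07, 0.280), S100a8 (-0.30, 0.326) and Lyz2 (0.19, 0.625) did not pass it. In cDKO none of 5 tested genes was called, where 0.117% of 10235 genes were, 12 in all, and 1137 had an unadjusted p under 0.05. Same-numbered cDKO replicates deviated together across times, and with the replicate number as a block 128 genes were called and the log2 changes of the primary granule genes had smaller errors, 0.01 ± 0.18 for Mpo, 0.01 ± 0.17 for Elane, -0.04 ± 0.09 for Prtn3 and 0.06 ± 0.08 for Ctsg. Among the 4, Ctsg had the largest difference between genotypes in its change over the chase, 0.43 ± 0.13 (adjusted p = 0.852), in a test that called 0 of 10651 genes with edgeR (0%), although 557 had an unadjusted p under 0.05 and DESeq2 called 6.

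SLAM-seq reads the age of a transcript from thymines that 4SU labelling turns into cytosines. At steady abundance, a T-to-C conversion rate that falls slowly after the label is withdrawn marks a transcript that persists. Among the primary granule genes in control cells, a larger share of the conversion remained at 540 min than over the library as a whole. Over all genes together the control rate was 1.62% to 1.67% at 0 min and 0.305% to 0.330% at 540 min, which is 19.2% of the start, and the median gene of 7405 retained 7.93%.

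Elane transcripts in control had conversion rates of 1.81%, 1.85% and 1.91% at 0 min and 1.58%, 1.67% and 1.497% at 540 min. They retained 85.2% of the 0 min rate (87.1%, 90.4% and 78.4% by replicate), and only 36 genes, 0.486% of those measured, retained more. Every library was labelled, so a background of T-to-C mismatches could not be separated from retained label. The same limit holds for the half-life of Elane. The control rates of Mpo were 1.25%, 1.33% and 1.35% at 0 min and 0.618%, 0.778% and 0.729% at 540 min, with 54.1% retained and 4.31% of genes retaining more.

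Prtn3 went in control from 1.44%, 1.49% and 1.43% to 0.787%, 0.817% and 0.774%, and retained 54.5%. Ctsg went from 1.59%, 1.55% and 1.51% to 0.835%, 0.901% and 0.822%, and retained 55.0%. In the retained share of the rate, Mpo, Prtn3 and Ctsg were thus close to each other. Most of their loss fell after 180 min, as did most of the loss over the library, from 65.7% to 19.2% in control. At 180 min Mpo, Prtn3 and Ctsg still retained 93.1%, 88.9% and 94.6% in control. Such shares measure persistence only at steady abundance, and in control Mpo rose and Ctsg fell over the chase. The ratio of each gene's rate to that of its library rose in control from 0.798 to 2.25 for Mpo, from 1.13 to 5.03 for Elane, from 0.887 to 2.52 for Prtn3 and from 0.946 to 2.71 for Ctsg between 0 and 540 min.

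In cDKO the labelling was weaker and less even, with library rates of 0.542% to 0.845% at 0 min and 0.162% to 0.209% at 540 min. Shares of the start are therefore given in place of the rates. Neither shares nor half-lives remove a background of mismatches, which would weigh more on the lower cDKO rates. The 418 short-lived genes still had a rate of 0.0619% in cDKO at 540 min. The part of such a background in the cDKO shares was not tested. Elane in cDKO had 1.38%, 1.04% and 1.12% at 0 min and 1.18%, 1.63% and 1.35% at 540 min, and the groups overlapped, so that no loss of conversion was measured. Prtn3 went from 0.806%, 0.993% and 0.764% to 0.560%, 0.642% and 0.382%, retaining 61.8%, and Ctsg from 0.763%, 0.779% and 0.415% to 0.433%, 0.410% and 0.255%, retaining 56.1%. The cDKO library as a whole retained 25.4% and its median gene 13.1%.

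No difference between genotypes in the retained share at 540 min passed a test. Averaged over replicates the share was 85.3% in control and 121% in cDKO for Elane, 54.5% and 61.3% for Prtn3, and 55.0% and 56.9% for Ctsg. The exact two-sided permutation test gave p = 0.3 for Elane, 0.4 for Prtn3 and 0.6 for Ctsg, where the smallest p that 3 against 3 allows is 0.1. In the fit over all 4 times, the genotype by hour interaction of conversion was 0.03 ± 0.03 log2 units per hour for Elane (adjusted p = 0.653), 0.01 ± 0.03 for Prtn3 (0.920) and 0.00 ± 0.03 for Ctsg (0.997), in a test that called 0.13% of 9207 genes. Mpo was not tested in this fit because its cDKO replicate 3 at 540 min covered 76 T positions, under the minimum of 100. Without cDKO replicate 3 its interaction was -0.03 ± 0.04 (adjusted p = 0.801), and without the 540 min libraries 0.01 ± 0.13 (1.00). In cDKO replicate 1, which kept most of the Mpo reads, the rate was 0.788%, 0.696%, 0.769% and 0.329% at the 4 times, a retained share of 41.8%.

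Fitted as exponential decay, the control half-life was 718 min for Mpo (639.7, 853 and 684 min by replicate), 673 min for Prtn3 (697, 685 and 639.6), 735 min for Ctsg (672, 809.7 and 734) and 2005 min for Elane (2685, 2508 and 1372). Among 3712 genes measured in both genotypes, the middle value was 224 min for control and 251 min for cDKO cells, and 5.33%, 6.01%, 5.17% and 0.970% of genes had a longer control half-life than Mpo, Prtn3, Ctsg and Elane. In cDKO, Prtn3 had a half-life of 1035 min (2075, 833 and 781), a log2 ratio of 0.62 over control with p = 0.1 in the exact two-sided permutation test, the smallest possible with 3 against 3. The cDKO fit for Elane ended at the upper bound of 10000 min. All of these fits assume steady abundance, and in control Mpo rose and Ctsg fell over the chase. Ctsg in cDKO was left out because its 0 min rates varied by an SD of 0.316 of their mean, above the limit of 0.3. Without the 540 min libraries the cDKO fit for Prtn3 also ended at the upper bound, and the control half-lives were 1950.0 min for Mpo, 2025 min for Ctsg, 1002 min for Prtn3 and 1031 min for Elane, so values longer than the chase depend on that last time. S100a8, S100a9 and Lyz2 were left out in control because their 0 min rates varied by SDs of 0.452, 0.884 and 0.354 of their means. In cDKO these genes missed the coverage minimum, and Ltf, Camp and Ngp missed it in both genotypes.

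**Figure D4:**
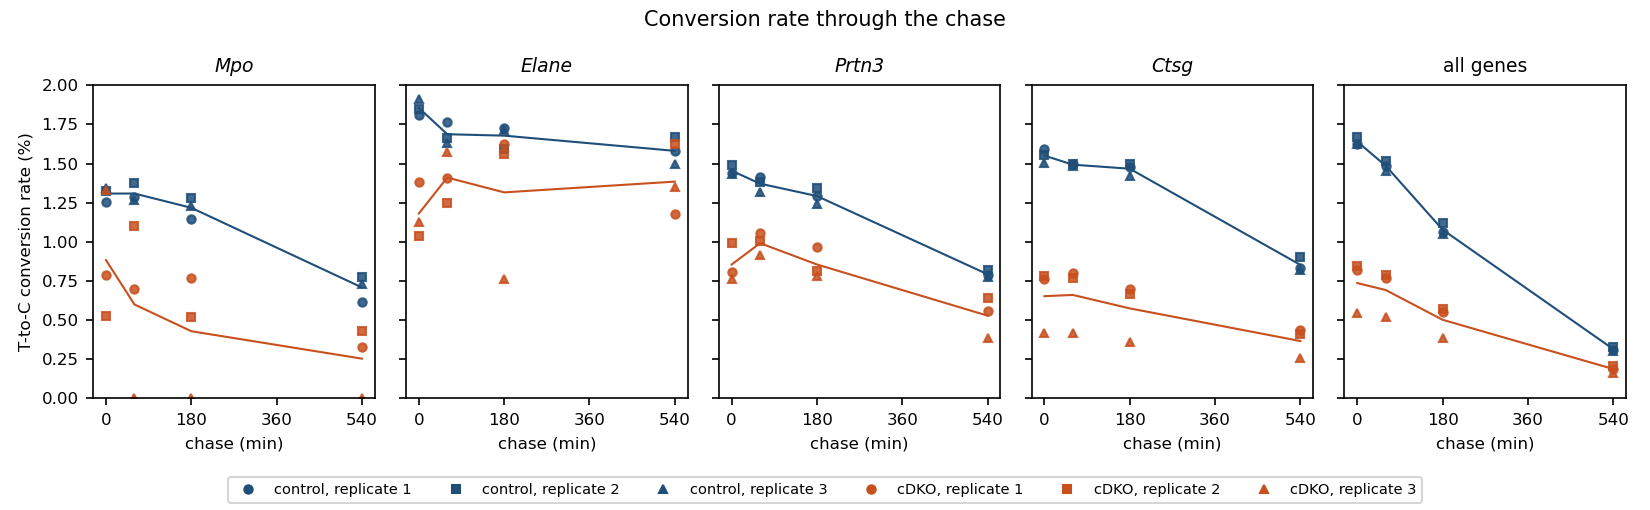
T-to-C conversion rate in percent against chase time in min for Mpo, Elane, Prtn3, Ctsg and all genes together, with 1 point a library and lines through the means of 3, control in blue and cDKO in orange. Control Elane stays at 1.497% or above at 540 min while all genes together fall to 0.330% or less, and the Mpo points of cDKO replicates 2 and 3 rest on few reads.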

How the data were processed

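The deposited tables hold, for each of 24 libraries and each 3′UTR interval, the read counts, T positions covered and T-to-C conversions that the authors obtained with SlamDunk 0.4.3 on mm10 (GRCm38), together with the deposited conversion rate as a fraction, which was recomputed here from its counts, and CPM relative to the filtered reads, from which the filtered reads of each library were recovered. RefSeq transcript names of the intervals were matched to symbols for 39091 of 39419 lines. Overlapping or repeated intervals were removed, intervals of a gene were summed, and CPM was recomputed over 3′UTR reads (9552906 to 13882269 filtered reads and 4380238 to 7041311 3′UTR reads a library). Libraries carry no molecular identifiers, so intervals cover counting error only, and all 24 were labelled, so no unlabelled background could be subtracted.

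Abundance was tested with edgeR 4.0.16 (R 4.3.3, quasi-likelihood, TMM, low-count filter, Benjamini-Hochberg adjustment, threshold 0.05), within each time for genotypes and within each genotype for times. Conversions were tested with edgeR with covered T positions in the offset, at a coverage minimum of 100 T positions in each library and 50 conversions over the libraries. Retained shares needed 1000 T positions. Half-lives were fitted after the study's methods, by exponential decay of rates divided by the mean 0 min rate, with an SD of at most 0.3 at 0 min and bounds of 1 and 10000 min. The edgeR and half-life fits were tested on simulated data. Alternatives were DESeq2 1.42.0, another library size, no filter, 1 fit of all libraries, the replicate number as a block and leaving out each replicate. The 10 genes are named in every comparison, and of each list at most the 3 called genes with the largest change in each direction at 0 min. The members and lists were chosen with earlier results of these data known. Same-numbered control and cDKO libraries did not deviate together (r from -0.05 to 0.05), nor did control libraries across times (r from -0.01 to 0.03 at the lowest), while same-numbered cDKO libraries did (lowest r 0.247, 0.528 and 0.601). Nothing in the labels ties a number to a culture. Sequences are from RefSeq, GRCm38.p6, and the promoter of each member was found there.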

Additional observations from a re-analysis of the deposited data

How the results depend on the processing

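Of 27 member results past the threshold, 315 of 320 alternatives kept the call, the 5 lost were all Mpo at 60 min, and no sign turned. The number of members called lower stayed at 6 or 7 at each time. Both tallies include S100a8, S100a9 and Lyz2, where a difference between genotypes was built into their being tested, so they carry no support for these 3 genes. The number of members called lower carries none for Mpo at 0, 180 and 540 min either, for the same reason. Over all genes the count of lower calls moved, at 0 min from 676 to 1176 with filtered reads as library size (470 higher, against 684) and 1168 with all 24 libraries in 1 fit, and at 60 min from 1035 to 1896 with filtered reads (637 higher, against 1011), a scaling that shifts the median log2 change of all genes to -0.15 and -0.14. With filtered reads, 733 genes were higher and 1232 lower at 180 min, and 1305 higher and 523 lower in control between 0 and 540 min. Leaving out a replicate gave 308 to 1048 lower calls at 0 min, 654 to 1226 at 60 min, 606 to 1137 at 180 min and 630 to 1117 at 540 min.

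Between 0 and 540 min in control, 4 members were called with DESeq2, 4 with no filter and 2 to 4 without a replicate, against 2, and 1007 to 1722 of all genes without a replicate, against 1660. In cDKO 12 genes became 123 with DESeq2, 4 with filtered reads, 128 with the replicate block and 0 to 5 without a replicate. The difference between genotypes in this change had 6 calls with DESeq2, 6 with a replicate block by culture and 0 to 1 without a replicate. The log2 change of Prtn3 in control turned to 0.0061 with filtered reads. In cDKO, Prtn3 turned to 0.12 with filtered reads and ran from -0.36 to 0.32 without a replicate, Elane turned to 0.0134 with the replicate block and ran from -1.37 to 1.52, Ctsg ran from -0.0317 to 0.18 and Mpo from -3.53 to 3.45.

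The conversion test called 207 genes with DESeq2, 23 with the library-wide rate in the offset, 3 with the rate of short-lived genes subtracted, 1 without the 540 min libraries, 24 with the replicate block, 59 with a block by culture, chosen after seeing the data, and 3 to 30 without a replicate, against 12. The interaction turned to -0.0434 for Ctsg, -0.0127 for Elane and -0.0416 for Prtn3 with the library-wide rate, to -0.0084 for Ctsg with short-lived genes subtracted and to -0.0424 for Ctsg without the 540 min libraries. Without a replicate it ran from -0.0041 to 0.0059 for Ctsg and from -0.0048 to 0.0202 for Prtn3. The log2 half-life ratio of Prtn3 was 3.32 without the 540 min libraries, where the cDKO fit sits at the upper bound so that the ratio is set by that bound, 0.05 with a free intercept and 0.29 to 0.83 without a replicate, against 0.62. A coverage minimum applied within each genotype was also chosen after seeing the data. With the replicate block between genotypes, whose numbers do not pair, Mpo was called at 0 min (-4.37, adjusted p = 0.0383) and 180 min (-4.53, 0.0164). Mpo entered both of these tests through its control reads alone. The cause of these movements was not tested. Depth limits Ltf, Camp, Ngp and the S100 genes, and with 3 against 3 no permutation test can go below 0.1.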

Other observations

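By Pearson correlation of log2 CPM over 24 libraries, which differ mainly by genotype, the genes most like Mpo among 10839 were Ifitm1 (r = 0.963), Actn1 (0.962) and Gm7694 (0.957). Those most like S100a9 were Zfp267 (0.968), Mmp8 (0.963) and F13a1 (0.954), and those most like Lyz2 were Dcun1d1 (0.958), D630023F18Rik (0.953) and Aplp2 (0.949). Ngp had too few reads for this measure. The libraries share genotype and culture, so these values describe a pattern and carry no test.

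The 3′UTR of Meis1, one of the 2 transforming genes, had no read in any control library. Over the 3 cDKO libraries it had 21, 18, 44 and 24 reads at 0, 60, 180 and 540 min, with means of 1.45, 1.19, 2.84 and 1.43 CPM. Whether the retroviral Meis1 transcript carries this 3′UTR is not stated, so these reads may not measure the transgene.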
